A study of Mus with 6 samples.

Results

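The 40 genes described here encode parts of autophagy and of the lysosome, and they were taken by symbol from a matrix of 48882 genes measured in mouse liver. They comprise 19 genes of the autophagy core, 5 autophagy receptors and mitophagy genes, the transcription factors Tfeb and Tfe3, and 14 lysosomal genes. All 40 were found and all 40 had a value in each of the 6 libraries. The libraries form 2 groups of 3, Fabp4-/- mice and wild type littermates. Both groups were given the Lieber-DeCarli liquid diet, an ethanol-containing feed, over 8 weeks, and then 1 ethanol binge. The comparison is therefore of genotypes under the same ethanol regimen. Whether each liver had alcoholic steatohepatitis is not shown by the values used here. Livers without ethanol were not analysed here. The labels give the tissue as liver and the genotypes as FABP4 knock out and WT, while the sources used here give no strain, sex, age or design of the deleted allele.

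Macroautophagy encloses cytoplasm in a double membrane, the autophagosome, and delivers it to the lysosome, where acid hydrolases break it down. The Ulk1 kinase complex and the Becn1 lipid kinase complex start the membrane. A pair of ubiquitin-like conjugation systems then attaches proteins of the Atg8 family (LC3 and GABARAP) to it, and receptors such as Sqstm1 (p62) tie cargo to those proteins. Tfeb and Tfe3 drive transcription of autophagy and lysosome genes together. In liver this route removes damaged mitochondria and lipid droplets, and Sqstm1 protein is a component of the inclusions seen in alcoholic hepatitis. RNA was measured here, and neither protein levels nor autophagic flux.

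Values are in TPM, a measure of transcript abundance relative to the library total, which corrects for transcript length, so that levels of different genes can be set side by side. The antilogarithms of the deposited values summed to between 983800 and 1018120 per library, 20664 to 21438 genes had a value in a library, and read depth is unknown. Fabp4, the deleted gene, had 14.7, 8.15 and 20.0 TPM in the 3 wild type livers and no listed value in the 3 knockout livers. Albumin, the defining hepatocyte transcript, was the most abundant gene in all 6, at an identical value, as happens when libraries are forced to 1 distribution. Of 8 neutrophil markers, Ly6g and Mpo had a value in wild type replicate 2 only, of at most 0.104 TPM. The neutrophil marker S100a8 had a value in every library. It was at 16.5, 21.5 and 7.81 TPM in wild type livers against 9.64, 6.03 and 4.60 TPM in knockout livers. Of 6 adipocyte markers, Adipoq (1.99 TPM), Retn and Lep had a value in knockout replicate 1 only. Cfd was at 5.94 TPM there and at 0.105 TPM in wild type replicate 3. Plin1 had a value in that knockout library and in wild type replicates 1 and 2. Cidec had a value in every library, at 82.5, 85.8 and 16.2 TPM in wild type livers against 42.9, 8.93 and 20.3 TPM in knockout livers.

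Expression of the 40 genes differed little between genotypes, and none passed limma's test (Benjamini-Hochberg adjusted p under 0.05 over all genes). The adjusted p-values of the 40 lay between 0.530 and 0.999, while 1 of the 14155 genes tested passed (0.00706%), and that gene was Fabp4 (log2 -3.85). Its adjusted p was 0.145 with no filter on low values and 0.0820 with a replicate block, at the same difference, and 0.0922 to 0.176 without wild type replicate 1, knockout replicate 1 or knockout replicate 2. At an unadjusted p under 0.05 there were 3 of the 40, or 7.50%, against 8.03% of all genes tested. Those 3 were Map1lc3b, Atg14 and Ctsl, each with the lower mean in the knockout, a direction that 2.91% of all genes tested shared at that p. None of the 40 was higher at that p, against 5.12% of all genes. The groups did not overlap for 5 of the 40, or 12.5%, against 13.3% of all genes tested. Map1lc3b and Atg9a lay lower in every knockout library (4.38% of all genes tested did) and Tfeb, Tfe3 and Rab7 higher (8.94%). Both overall shares lie near the background and are therefore no result about these genes. The 95% interval of the log2 difference lay within 1 either way, a factor of 2.0, for 39 of the 40, Ctsl being the exception. It lay within 0.50, a factor of 1.41, for 29 of the 40. Over all 14155 genes tested it lay within 1 for 12500 and within 0.50 for 5483. Of the genes with a mean of at least 5 TPM, 91.2% had it within 1. These intervals are not adjusted for the number of genes.

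**Figure D1:**
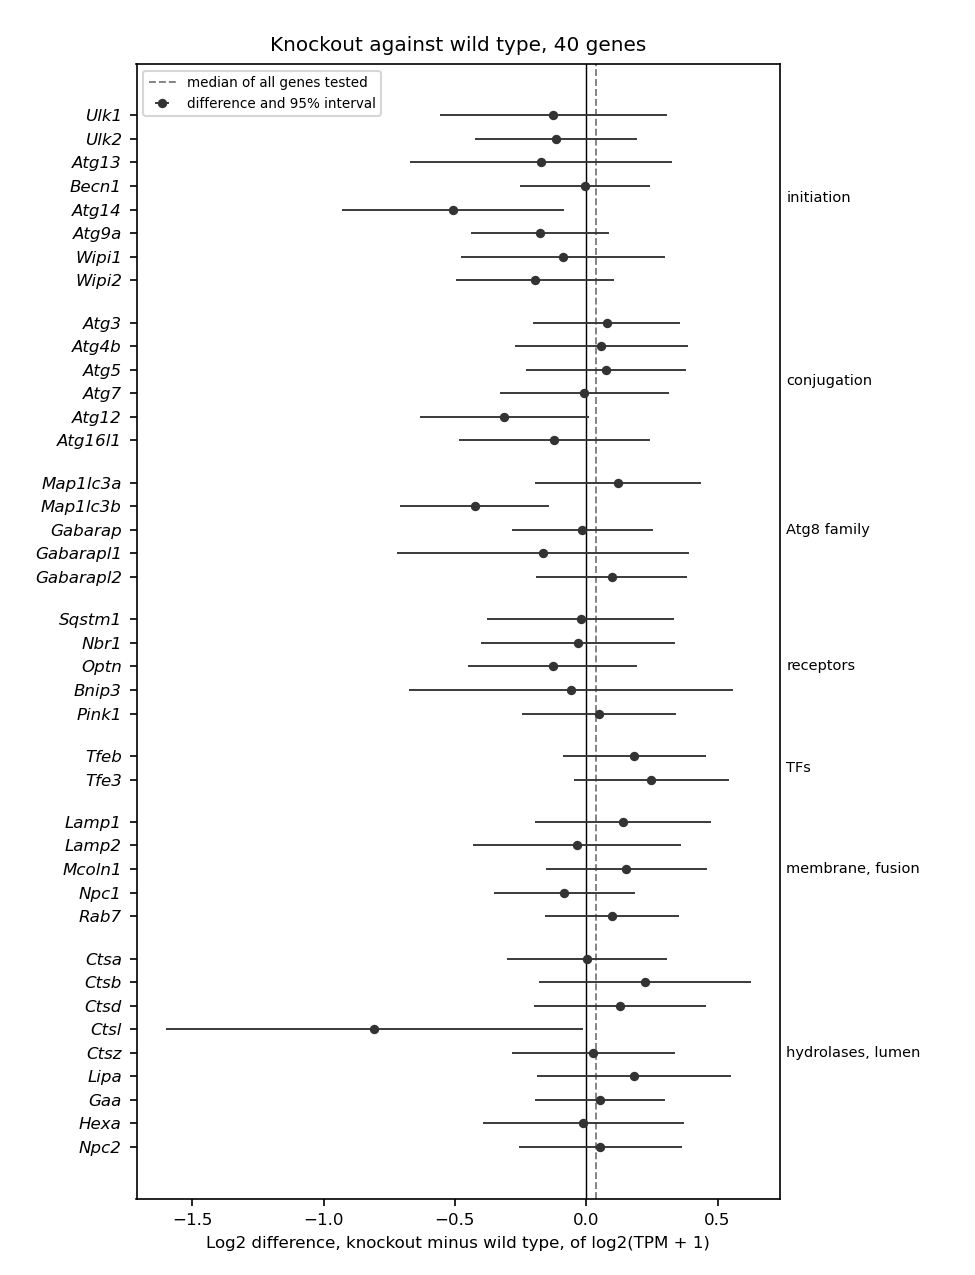
Difference between knockout and wild type for each of the 40 genes, grouped by role, on the log2(TPM + 1) scale. Points are differences, horizontal bars 95% intervals and the dashed line the median of all 14155 genes tested (0.04). The intervals of 37 genes include 0, and those of Atg14, Map1lc3b and Ctsl lie below it.

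The levels spanned a wide range. Ctsl was the highest of the 40 in 5 libraries, at 543 to 1457 TPM, while in knockout replicate 2 Lamp1 was, at 493 TPM. The least abundant member was Tfeb, with a mean of 4.27 TPM, at the 39.3rd percentile of the genes tested. The most abundant was Ctsl, with a mean of 738 TPM, at the 98.8th percentile. Next came Sqstm1 at 487 TPM and the lysosomal membrane glycoprotein gene Lamp1 at 455 TPM. The core genes that start the phagophore were lower, between 5.43 TPM for Wipi1 and 46.3 TPM for Becn1. The ratio of the highest to the lowest of the 6 libraries had a median of 1.36 over the 40 genes, against 1.48 over the 8075 genes with a mean of at least 5 TPM. It was smallest for Becn1 (1.08) and largest for Ctsl (4.09).

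**Figure D2:**
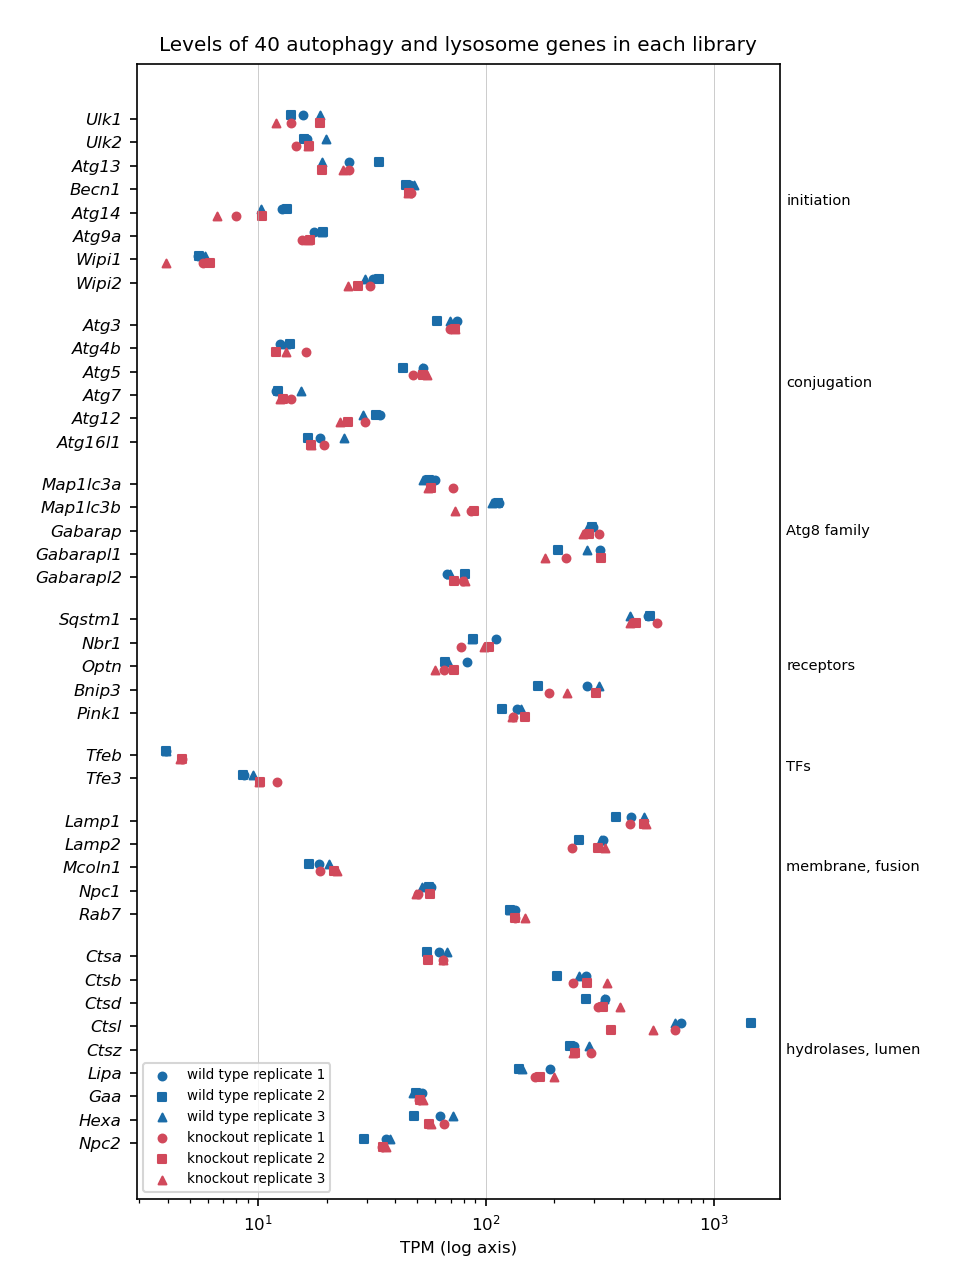
Level of each of the 40 genes in each library, in TPM on a log axis, grouped by role. Wild type libraries are blue and knockout libraries red, with 1 symbol per replicate number. Levels run from 3.92 TPM (Tfeb) to 1457 TPM (Ctsl in wild type replicate 2), and for most genes the colours intermix.

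The 8 genes of initiation and nucleation all had a lower mean in the knockout, with a median log2 difference of -0.15 against 0.04 over all genes tested. None of the 8 passed the test over all genes (limma, lowest adjusted p 0.564). The sign rested on single libraries for 4 of the 8. Without knockout replicate 3 the differences of Ulk1 (0.0084), Becn1 (0.0030) and Wipi1 (0.075) were positive, as were those of Becn1 without wild type replicate 3 (0.021) and Atg13 without wild type replicate 2 (0.033). Atg14 (mm10 chromosome 14, 47540893 to 47568434, minus strand), which directs the Becn1 lipid kinase complex to the site of autophagosome formation, was at 12.8, 13.4 and 10.2 TPM in wild type livers against 7.96, 10.4 and 6.604 TPM in knockout livers. Knockout replicate 2 lay just above wild type replicate 3, so the groups overlapped by a narrow margin. The log2 difference of Atg14 was -0.51 (SE 0.18), with a 95% interval from -0.93 to -0.08. Atg9a, the lipid scramblase whose vesicles seed the membrane, was at 17.5, 19.3 and 19.02 TPM in wild type livers against 15.6, 16.9 and 16.6 TPM in knockout livers, with no overlap. Its log2 difference was small, -0.18 (SE 0.11). Becn1 itself, the scaffold of the lipid kinase complex, was the steadiest of the 40, at 46.3, 44.7 and 48.2 TPM in wild type livers against 46.8, 46.2 and 45.7 TPM in knockout livers. Its difference was -0.01 (95% interval -0.25 to 0.24).

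The kinase genes Ulk1 and Ulk2 and their partner Atg13, which receive the starvation signal from mTORC1, overlapped between groups. Ulk1 was at 15.8, 13.9 and 18.7 TPM in wild type livers against 13.9, 18.6 and 11.97 TPM in knockout livers (log2 -0.12, SE 0.19). Ulk2 ranged from 14.7 to 19.9 TPM over the 6 libraries (log2 -0.11, SE 0.13). Atg13 was highest in wild type replicate 2, at 34.0 TPM, and lay between 18.99 and 25.03 TPM in the other 5 (log2 -0.17, SE 0.21). The phosphoinositide-binding Wipi1 (log2 -0.09, SE 0.17) and Wipi2 (-0.20, SE 0.13), which recruit the conjugation machinery, had their lowest values in knockout replicate 3, at 3.94 and 24.8 TPM. Of these 8 genes, Ulk1, Atg14, Wipi1 and Wipi2 were all lowest in that library.

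The 6 conjugation genes were split evenly, 3 with a higher and 3 with a lower mean in the knockout, at a median log2 difference of 0.03. Atg12, the ubiquitin-like protein that is joined to Atg5, was at 34.4, 33.0 and 28.8 TPM in wild type livers against 29.4, 24.8 and 22.95 TPM in knockout livers. Knockout replicate 1 exceeded wild type replicate 3, and the log2 difference of Atg12 was -0.31 (SE 0.14; 95% interval -0.63 to 0.01). Its partners lay closer together. Atg5 averaged 49.5 ± 5.64 TPM in wild type livers against 52.1 ± 3.64 TPM in knockout livers (SD, n = 3 each), and Atg16l1, which completes the complex, 19.7 ± 3.73 and 17.9 ± 1.42 TPM (SD, n = 3 each). The E1-like enzyme Atg7 (log2 -0.01, SE 0.14), the E2-like enzyme Atg3 (0.08, SE 0.12) and the protease Atg4b, which primes and removes Atg8 proteins (0.06, SE 0.14), had differences smaller than their standard errors.

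Within the Atg8 family, Map1lc3b (mm10 chromosome 8, 121590468 to 121598047, plus strand) had the smallest p of the 40 genes. It encodes LC3B, the form most used to mark autophagosomes. Its level was 114, 113 and 106 TPM in wild type livers against 86.4, 88.7 and 73.3 TPM in knockout livers. Every knockout library thus lay below every wild type library. The log2 difference was -0.42 (SE 0.12; 95% interval -0.71 to -0.14), a knockout level of 0.745 times that of wild type, with an unadjusted p of 0.00891 and an adjusted p of 0.530 (limma, Benjamini-Hochberg). A two-sided exact permutation test of Map1lc3b returned p = 0.1, and a design of 3 against 3 can go no lower. The direction was the same in each of the 14 alternative settings, with log2 differences between -0.48 and -0.34. Because the groups do not overlap, leaving out libraries could not have reversed it, so this is no further evidence of a difference.

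The other Atg8 genes did not share this pattern. Map1lc3a, which encodes LC3A, was at 59.6, 56.3 and 52.7 TPM in wild type livers against 71.5, 57.4 and 55.8 TPM in knockout livers (log2 0.12, SE 0.14). The ratio of Map1lc3b to Map1lc3a was 1.91, 2.01 and 2.01 in wild type and 1.21, 1.55 and 1.31 in the knockout. Scaling a whole library by 1 factor does not alter such a ratio, but forcing libraries to 1 distribution can. That ratio was chosen after its values were seen and was not tested. Gabarap and Gabarapl1 were the most abundant of the family, with means of 289 and 254 TPM over the 6 libraries. Gabarap averaged 290.2 ± 7.08 TPM in wild type livers against 288 ± 23.0 TPM in knockout livers (SD, n = 3 each). Gabarapl1 was far more variable, at 317, 208 and 277 TPM in wild type livers against 224, 319.8 and 181 TPM in knockout livers (log2 -0.16, SE 0.24). Gabarapl2 averaged 72.7 ± 7.32 and 77.7 ± 4.47 TPM (SD, n = 3 each). Map1lc3b made up 13.4% to 15.1% of the summed TPM of the 5 genes in wild type and 10.8% to 11.2% in the knockout. This share restates the Map1lc3b values given above and was not tested.

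**Figure D3:**
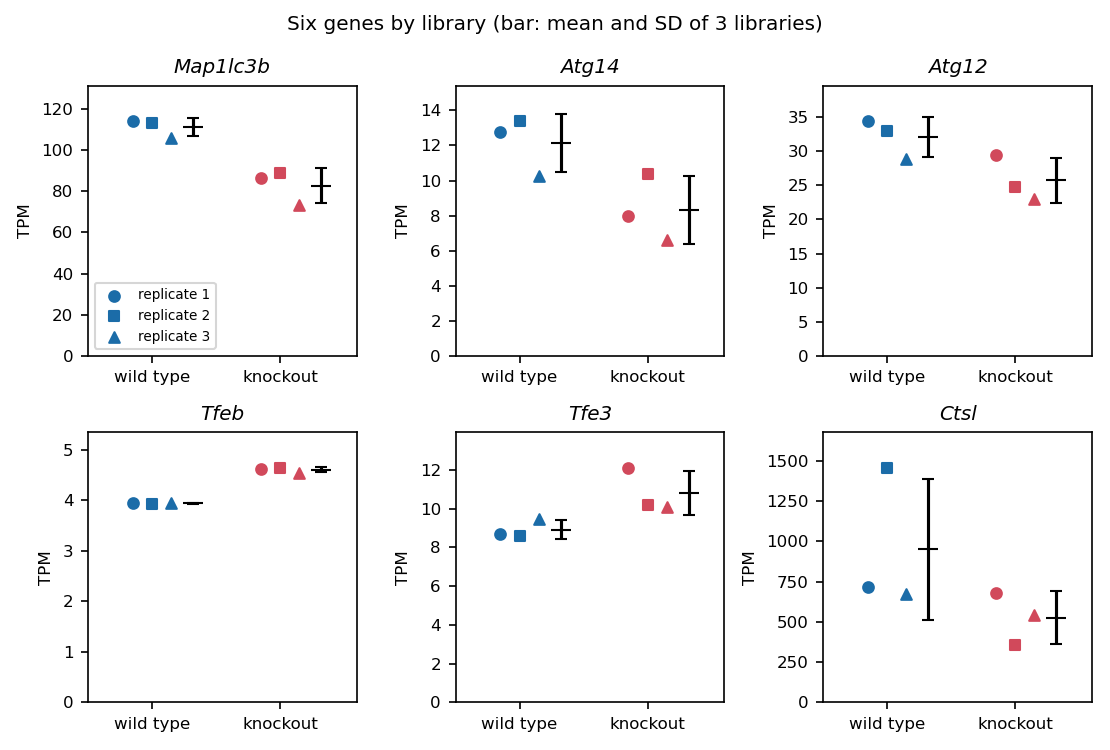
Levels of Map1lc3b, Atg14, Atg12, Tfeb, Tfe3 and Ctsl in each library, in TPM, with the mean and SD of each group of 3 beside the points. Groups are apart for Map1lc3b, Tfeb and Tfe3, overlap for Atg14, Atg12 and Ctsl, and for Ctsl wild type replicate 2 lies far above the rest.

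None of the receptors and mitophagy genes passed the test, with a median log2 difference of -0.03 over the 5. Sqstm1, the ubiquitin-binding receptor p62, was at 515, 527 and 428 TPM in wild type livers against 565, 459 and 428 TPM in knockout livers. The groups spanned nearly the same range, and the log2 difference was -0.02 (SE 0.15; 95% interval -0.38 to 0.33). Nbr1, a receptor related to p62, averaged 95.2 ± 13.8 and 93.1 ± 13.2 TPM (SD, n = 3 each). Optn, a receptor for bacteria and mitochondria, averaged 72.3 ± 9.07 and 65.9 ± 6.35 TPM (SD, n = 3 each). Pink1, the kinase that labels depolarised mitochondria, averaged 132 ± 12.7 and 137 ± 10.2 TPM (SD, n = 3 each).

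Bnip3, a mitochondrial receptor induced by hypoxia, was the most variable of these 5, at 278, 169 and 314 TPM in wild type livers against 189, 305 and 227 TPM in knockout livers (log2 -0.06, SE 0.27). An antisense gene that overlaps Bnip3 over 3712 bases averaged 51.6 TPM, and since the counting of strands is not stated, reads of the 2 cannot be told apart. Bnip3, Gabarapl1 and Ulk1 had their 3 highest values in the same libraries, wild type replicates 1 and 3 and knockout replicate 2, a pattern noticed in the values and not tested.

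Both transcription factors had a higher mean in the knockout, by a small margin. Tfeb (mm10 chromosome 17, 47737037 to 47792416, plus strand) was at 3.94, 3.92 and 3.94 TPM in wild type livers against 4.62, 4.64 and 4.55 TPM in knockout livers. The groups were tight and apart, yet the difference was 0.18 on the log2(TPM + 1) scale (SE 0.12; 95% interval -0.09 to 0.46; adjusted p 0.747 from limma), where the standard error is drawn towards that of other genes of like abundance. Tfe3 (mm10 chromosome X, 7762537 to 7775202, plus strand) was at 8.66, 8.59 and 9.46 TPM in wild type livers against 12.1, 10.2 and 10.1 TPM in knockout livers. The groups did not overlap, and the log2 difference was 0.25 (SE 0.13). Groups lay apart with the knockout higher for 8.94% of all genes tested, so such a gap is common in these libraries. These are RNA levels of factors that are controlled largely by phosphorylation and entry into the nucleus, which were not measured.

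None of the 5 genes of the lysosomal membrane and of fusion passed the test, with a median log2 difference of 0.10. Lamp1 was at 432, 374 and 495 TPM in wild type livers against 430.4, 493 and 505 TPM in knockout livers (log2 0.14, SE 0.14). Lamp2, a membrane protein needed for fusion and for chaperone-mediated autophagy, was at 327, 256 and 320.5 TPM in wild type livers against 239, 311 and 335 TPM in knockout livers (log2 -0.04, SE 0.17). Rab7, the small GTPase of late endosomes, was at 134.0, 128.0 and 127.9 TPM in wild type livers against 134.2, 134.8 and 149 TPM in knockout livers. Its groups were apart only by the narrow gap between 134.0 and 134.2 TPM (log2 0.10, SE 0.11). The calcium channel gene Mcoln1 averaged 18.6 ± 1.85 and 20.7 ± 1.90 TPM (SD, n = 3 each), and the cholesterol exporter gene Npc1 55.3 ± 2.59 and 52.1 ± 3.90 TPM (SD, n = 3 each).

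Among the 9 genes of hydrolases and lumen, 7 had a higher mean in the knockout and 2 a lower one, at a median log2 difference of 0.05. The cysteine protease gene Ctsl (mm10 chromosome 13, 64361890 to 64370748, minus strand) stood apart in size, at 718, 1457 and 674 TPM in wild type livers against 680.0, 356 and 543 TPM in knockout livers. Wild type replicate 2 was about 2-fold above the next library, and knockout replicate 1 slightly exceeded wild type replicate 3. The log2 difference of Ctsl was -0.81 (SE 0.34; 95% interval -1.60 to -0.01; adjusted p 0.614 from limma). Without wild type replicate 2 it was -0.45, and without knockout replicate 2 it was -0.55. Ctsl was the most abundant of the 5 cathepsin genes in each library, but its share of their summed TPM ranged from 28.2% in knockout replicate 2 to 65.4% in wild type replicate 2.

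The other cathepsins did not follow Ctsl. Ctsb, a cysteine protease, was at 274, 205 and 256 TPM in wild type livers against 242, 278 and 341 TPM in knockout livers (log2 0.22, SE 0.17). Ctsd, the main aspartic protease, was at 332, 275 and 329.9 TPM in wild type livers against 309.6, 328 and 387 TPM in knockout livers (log2 0.13, SE 0.14). Both were lowest in wild type replicate 2, where Ctsl was highest, and both were highest in knockout replicate 3. Ctsz averaged 254 ± 26.01 and 259 ± 25.8 TPM (SD, n = 3 each), and Ctsa, which also protects other lysosomal enzymes, 61.7 ± 6.22 and 61.8 ± 5.43 TPM (SD, n = 3 each). Ctsa overlaps Pltp on the other strand over 1515 bases, and Pltp averaged 32.3 TPM.

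Lipa, the acid lipase that hydrolyses cholesteryl esters and triglycerides delivered to the lysosome, was at 192, 139 and 145 TPM in wild type livers against 165, 172 and 199 TPM in knockout livers. Wild type replicate 1 lay within the knockout range, and the log2 difference was 0.18 (SE 0.16; 95% interval -0.19 to 0.55). The glycogen-degrading Gaa averaged 49.8 ± 2.16 and 51.7 ± 1.02 TPM (SD, n = 3 each). Hexa, a subunit of beta-hexosaminidase, averaged 60.8 ± 11.8 and 59.7 ± 4.92 TPM (SD, n = 3 each). Npc2, the soluble cholesterol carrier of the lumen, averaged 34.4 ± 4.69 and 35.5 ± 0.685 TPM (SD, n = 3 each).

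Individual libraries accounted for many of the extremes. Wild type replicate 2 held the lowest value of 9 of the 14 lysosomal genes, and knockout replicate 3 the highest of 8. For the 13 lysosomal genes other than Ctsl, the mean of centred log2(TPM + 1) was 0.04, -0.19 and 0.04 in wild type and -0.03, 0.02 and 0.11 in the knockout. For the 19 core genes it was 0.07, 0.03 and 0.06 in wild type and 0.00, -0.01 and -0.15 in the knockout. Knockout replicate 3 held the lowest value of 8 of those 19. Over all genes tested, 57.4% had a higher mean in the knockout. The core list had 5 genes with a higher and 14 with a lower mean in the knockout, at a median log2 difference of -0.11. Without knockout replicate 3 the split was 11 higher and 8 lower and the median 0.01, and without wild type replicate 3 it was 8 and 11 with a median of -0.02. Under median scaling and under quantile normalization it stayed at 5 and 14, with medians of -0.15 and -0.14. The lysosomal list had 10 higher and 4 lower, at a median of 0.05. Without wild type replicate 2 the split was 7 and 7 and the median 0.01, without wild type replicate 3 it was 12 and 2 with a median of 0.11, and under median scaling 8 and 6 with a median of 0.01. Leaving out wild type replicate 1 or knockout replicate 1 gave medians of 0.09. No gene of either list passed the test over all genes in any alternative.

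**Figure D4:**
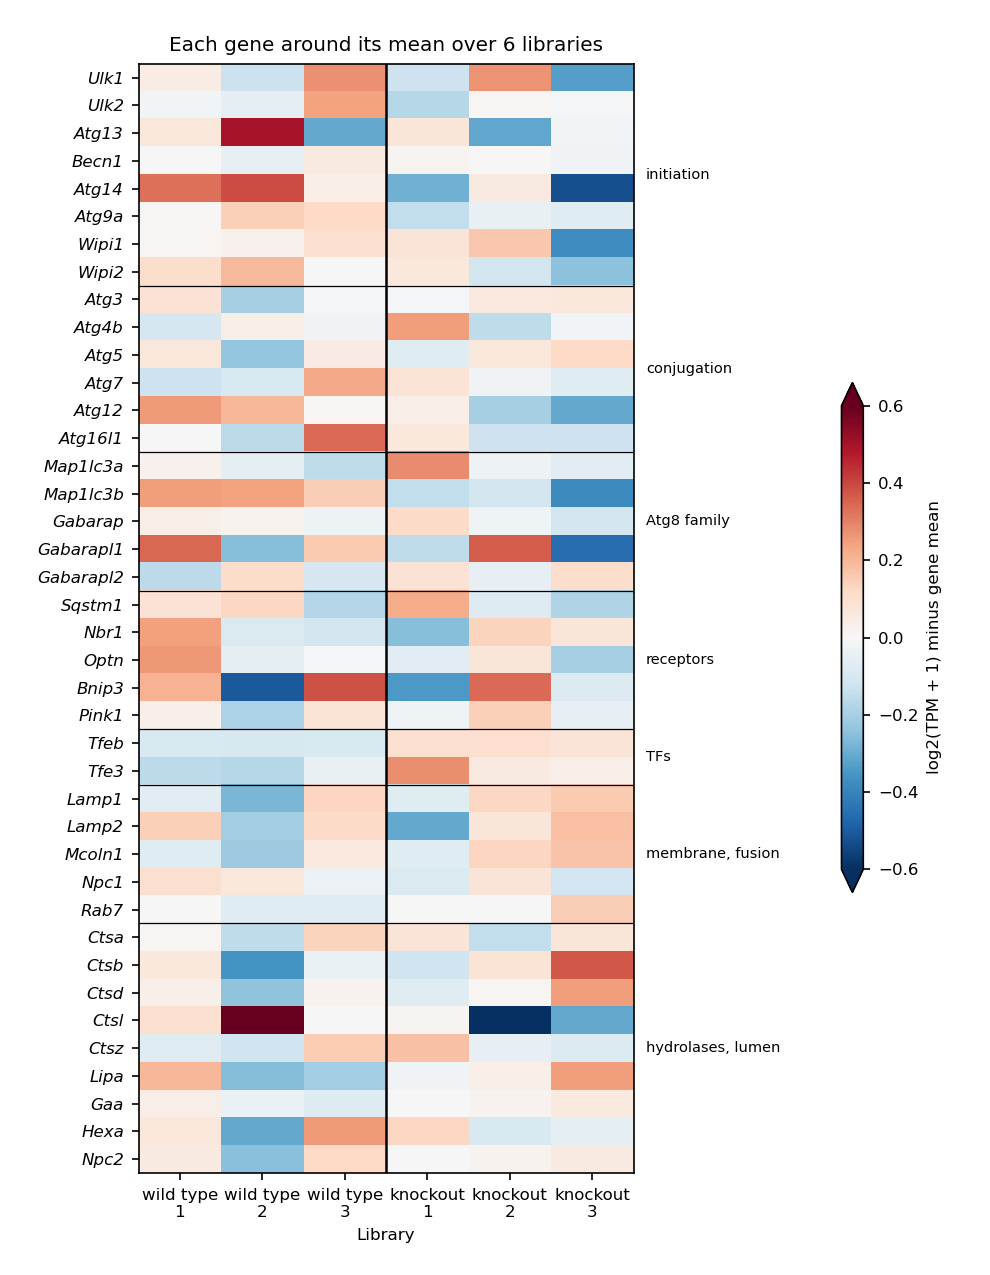
Each of the 40 genes around its own mean over the 6 libraries, on the log2(TPM + 1) scale, red above and blue below the mean, with the colour scale ending at 0.60 either way. Wild type libraries are left and knockout libraries right of the vertical line. Wild type replicate 2 is mostly blue in the lysosomal rows, with Ctsl and Npc1 above their means. Knockout replicate 3 is blue in many core rows, and Map1lc3b, Tfeb and Tfe3 separate at the line.

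Macrophages, including the Kupffer cells of the liver, carry many lysosomes, and the sum of their markers had its extremes in the same libraries. Single markers did not all do so, since Vsig4, Marco and Cd163 were lowest in wild type replicate 3. The summed level of 12 Kupffer cell and macrophage markers was 649, 237 and 279 TPM in wild type livers against 436, 546 and 973 TPM in knockout livers. It was lowest in wild type replicate 2 and highest in knockout replicate 3, as were Ctsb and Ctsd. Between wild type replicates 1 and 3 the sum differed, at 649 and 279 TPM. The centred mean of the 13 lysosomal genes other than Ctsl was 0.04 in both. All 12 markers had a higher mean in the knockout, none passed the test over all genes (limma, lowest adjusted p 0.536), and none was without a value in a library. Clec4f, a Kupffer cell lectin, was at 81.6, 34.0 and 45.6 TPM in wild type livers against 70.4, 94.2 and 140.1 TPM in knockout livers. In whole liver, more cells of a type and more RNA per cell cannot be told apart. The part of macrophages in the values of the lysosomal genes was not tested. All 10 markers of sinusoidal endothelium also had a higher mean in the knockout. Their summed level was 252, 197 and 204 TPM in wild type livers against 310.3, 284 and 332 TPM in knockout livers. Its lowest and highest libraries were those of the macrophage sum, so these extremes were not particular to macrophages. All 8 stellate cell markers and every tested marker of cholangiocytes (5) and red blood cells (3) likewise had a higher mean. So had 4 of 5 tested lymphocyte markers and 1 of 2 tested adipocyte markers, while all 3 tested neutrophil markers had a lower mean. Of 7 hepatocyte markers 4 were higher, Apoa1 and Asgr1 were lower, and Alb had the same value in all 6 libraries. Of all genes tested 57.4% were higher. The groups did not overlap for 8 of the 10 endothelial and 3 of the 12 macrophage markers, against 13.3% of all genes tested. The 8 neutrophil markers, of which 2 to 5 had no value in a library, had a summed level of 39.3, 48.9 and 19.9 TPM in wild type livers against 19.9, 18.4 and 14.4 TPM in knockout livers. The part of these cell types was not tested either.

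A further 173 genes in 9 lists, covering the rest of the autophagy, lysosome and nutrient-sensing machinery, were set beside the 40. Of these, 170 met the abundance filter, and not 1 of them passed over all genes (limma, lowest adjusted p 0.536). At an unadjusted p under 0.05 there were 7 (4.12%), 5 higher and 2 lower in the knockout, against 8.03% of all genes tested. The groups did not overlap for 21 (12.4%), 16 higher and 5 lower in the knockout, against 13.3% of all genes tested. That share lies near the background, and the genes named below were picked for the smallest p in each list. The median log2 difference of the 170 was 0.03, and 98 (57.6%) had a higher and 72 a lower mean, a share close to the 57.4% of all genes tested.

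Of 21 further genes of the autophagy machinery, 8 had a higher and 13 a lower mean in the knockout, at a median log2 difference of -0.06. Atg2a, a lipid transfer protein that feeds the growing membrane, was at 13.1, 11.1 and 10.5 TPM in wild type livers against 8.88, 9.32 and 6.86 TPM in knockout livers, with no overlap (log2 -0.43, SE 0.16). Nrbf2, a subunit of the Atg14-containing lipid kinase complex, had a difference of -0.35 (SE 0.15). Uvrag, which replaces Atg14 in the late endosomal form of that complex, was higher in every knockout library (log2 0.29, SE 0.13), as was Rubcn, an inhibitor of the Uvrag form (0.21, SE 0.12). Of 13 further receptors, 10 had a lower mean, among them Tbk1, the kinase that activates Optn (-0.21, SE 0.12), Tollip (-0.17, SE 0.11), Calcoco1 (-0.27, SE 0.22) and the endoplasmic reticulum receptor Retreg1 (-0.31, SE 0.21). The last is listed under its older symbol Fam134b.

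Of 14 genes of autophagosome fusion, 12 had a higher mean in the knockout, where 57.4% of all genes tested did, at a median log2 difference of 0.10 against 0.04 over all genes. Rilp, the Rab7 effector that couples late endosomes to dynein, was at 16.9, 16.3 and 17.6 TPM in wild type livers against 27.2, 23.4 and 19.3 TPM in knockout livers (log2 0.43, SE 0.15). The SNARE genes Snap29 (0.31, SE 0.14) and Vamp8 (0.20, SE 0.12) had smaller differences, and Rab7b was at 0.293 to 0.763 TPM over the 6 libraries, too low to compare well. None of the 14 passed.

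Of 36 further lysosomal hydrolase genes, 25 (69.4%, against 57.4% of all genes tested) had a higher and 11 a lower mean in the knockout, at a median log2 difference of 0.14. None of the 36 passed. Dnase2a, the lysosomal DNase, was at 13.8, 12.9 and 14.7 TPM in wild type livers against 17.95, 17.1 and 18.7 TPM in knockout livers, with no overlap (log2 0.36, SE 0.12). Acp5, the tartrate-resistant acid phosphatase of macrophages and osteoclasts, was at 55.5, 38.5 and 54.9 TPM in wild type livers against 62.9, 64.2 and 66.2 TPM in knockout livers, also with no overlap. Lgmn, the asparaginyl endopeptidase that processes cathepsins, had the larger difference of 0.59 (SE 0.27), but its groups overlapped. Smpd1, acid sphingomyelinase, went the other way (-0.22, SE 0.12). Among 22 further membrane protein genes, 12 were higher and 10 lower. The macrophage marker Cd68 (0.74, SE 0.38) and Laptm5 (0.53, SE 0.28) led by p, and their lowest value was in wild type replicate 2 and their highest in knockout replicate 3, as for the sum of the Kupffer cell and macrophage markers. Laptm4b (0.22, SE 0.14) followed, and the endolysosomal cation channel gene Tpcn2 was below 1 TPM in every library.

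The vacuolar ATPase, which acidifies the lysosome, had 9 of 15 measured genes higher and 6 lower, at a median log2 difference of 0.09. Atp6ap2 (0.24, SE 0.12), Atp6v1g1 (0.18, SE 0.12), Atp6v0e (-0.24, SE 0.14) and Atp6v1h (-0.19, SE 0.13) had the smallest p-values, in both directions. The 11 enzyme sorting genes were split 6 and 5 at a median of 0.00, with Sort1 (0.41, SE 0.20), Nagpa (0.20, SE 0.13), Gga3 (0.13, SE 0.14) and Gnptg (-0.09, SE 0.17) first by p.

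Nutrient-sensing genes upstream of autophagy had a list median equal to that of all genes, 19 higher and 14 lower of 33 tested, at a median log2 difference of 0.04. Rragc, a GTPase that brings mTORC1 to the lysosome, was at 28.8, 26.8 and 30.7 TPM in wild type livers against 32.6, 33.8 and 37.9 TPM in knockout livers, with no overlap (log2 0.26, SE 0.12). Prkaa1, the catalytic alpha1 subunit of AMPK, was also higher in every knockout library (0.26, SE 0.14). The mTORC1 inhibitor genes Sesn2 (0.51, SE 0.24) and Ddit4 (-0.60, SE 0.30) had larger differences of opposite sign, and the groups overlapped for both.

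Of the 5 tested genes linked to chaperone-mediated autophagy, 4 had a higher mean, the chaperone and co-chaperone genes Hspa8, Hsp90ab1 and Dnajb1 and the ubiquitin ligase gene Stub1. Hspa8, the cytosolic chaperone that brings substrates to Lamp2, was at 2441, 2041 and 2053 TPM in wild type livers against 2993, 2673 and 3196 TPM in knockout livers. Every knockout library lay above every wild type library, and the log2 difference was 0.44 (SE 0.14). Hsp90ab1 was at 986, 688 and 881 TPM in wild type livers against 1268, 1146 and 1156 TPM in knockout livers (0.50, SE 0.16), also with no overlap. Their adjusted p was 0.536 in both cases (limma, Benjamini-Hochberg). Dnajb1 (0.41, SE 0.27) and Stub1 (0.18, SE 0.15) overlapped between groups.

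**Figure D5:**
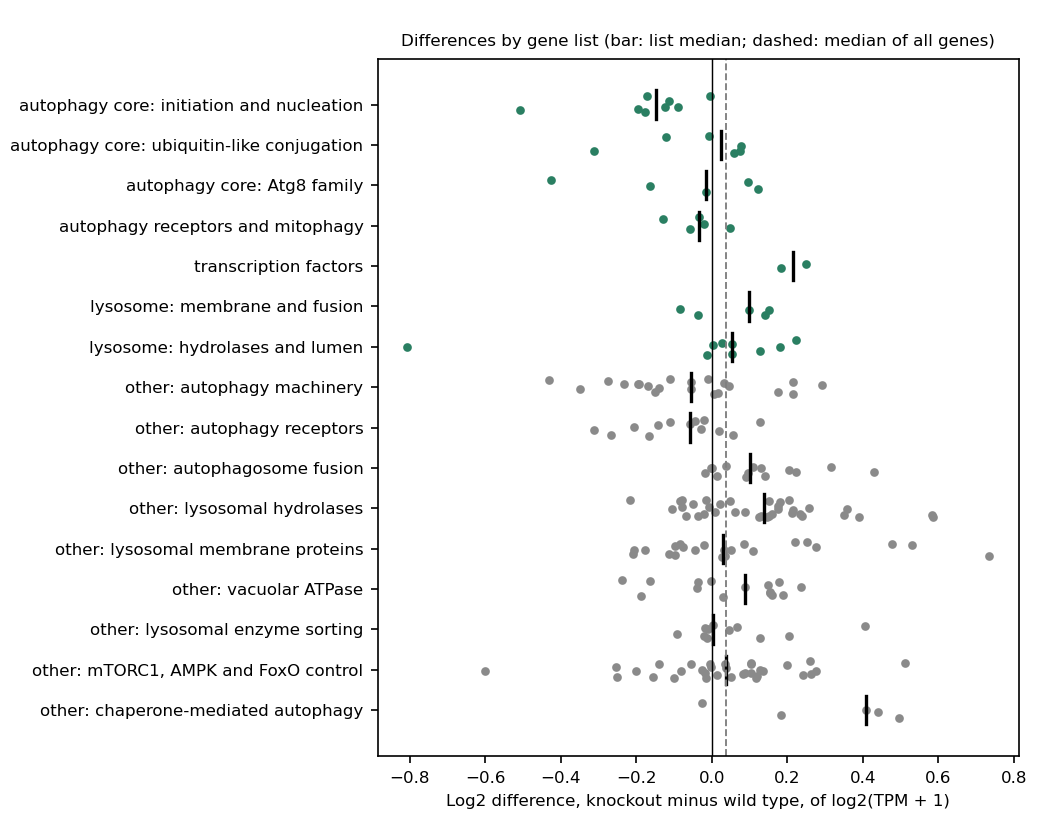
Log2 differences between knockout and wild type by gene list, on the log2(TPM + 1) scale, with 1 point per gene. The upper 7 lists (green) hold the 40 genes and the lower 9 (grey) the 170 further genes tested; black bars are list medians and the dashed line the median of all genes tested (0.04). Medians lie between -0.15 and 0.41, and Ctsl is the point farthest to the left.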

How the data were processed

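Per the labels' protocols, liver was flash-frozen, RNA extracted with TRIzol and libraries read on Illumina HiSeq. FastQC, Trimmomatic and the mm10 build are named in the submitters' processing notes, and the sources used here name no aligner, quantifier, annotation or strandedness. The deposited columns are headed TPM, per the file headers, but hold log2 of TPM, judged from the values: their antilogarithms sum to about the total that TPM has. The deposited columns share a maximum and nearly a median across libraries, the form that quantile normalization leaves. A shift of all genes together could therefore not be seen. Missing values were taken as 0 TPM, and values were turned back to TPM.

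The 14155 genes with a mean of at least 0.5 TPM over the 6 libraries were fitted on log2(TPM + 1) by limma (version 3.58.1, R version 4.3.3) with a mean-variance trend, knockout against wild type, with Benjamini-Hochberg adjustment over all of them and a threshold of 0.05. Differences on this scale understate those of low genes. The labels do not tie each library to a separate animal, so p-values measure the spread between these samples only. Deposited gene coordinates and lengths were used for positions and overlaps.

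The 40 genes and all other lists were chosen with earlier results of these data known. Named were the 40, Fabp4, up to 4 genes with the smallest p in each further list, and defining cell type markers. Alternatives covered pseudocount, filter, scaling, trend, a replicate block and leaving out libraries. The fit was tested on simulated data whose known changes were larger than any difference of the 40 genes. That test does not cover changes as small as theirs.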

Additional observations from a re-analysis of the deposited data

How the results depend on the processing

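The number of the 40 genes past the adjusted threshold was 0 in all 14 alternatives (limma), and so was that of the 170 further genes. The lowest adjusted p of any of the 40 was 0.413, for Map1lc3b without wild type replicate 3. Over all genes the number was 0 with no filter and 0 with the replicate block, against 1 as reported, and 0 to 6 with libraries left out. The Fabp4 difference was -3.85 in the first 2 settings as in the reported one, with adjusted p of 0.145 and 0.0820 (limma). Genes among the 40 without overlap numbered 8 after quantile normalization and 5 to 14 with libraries left out, where fewer libraries make gaps more common by construction. The median of the core list ranged from -0.11 to 0.0084 with libraries left out. Ctsa was at -0.038 and Ctsz at -0.014 under median scaling, and Ctsa at -0.018 after quantile normalization, each reversed, and the cause was not tested. Of the 40, 20 kept their sign in every alternative and 20 did not.

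Log2 differences that changed sign when libraries were left out ranged from -0.37 to 0.033 for Atg13, -0.29 to 0.017 for Atg16l1, -0.0011 to 0.14 for Atg3, -0.054 to 0.15 for Atg4b, -0.021 to 0.13 for Atg5, -0.096 to 0.10 for Atg7 and -0.040 to 0.021 for Becn1. Others ranged from -0.32 to 0.12 for Bnip3, -0.11 to 0.077 for Ctsa, -0.11 to 0.11 for Ctsz, -0.077 to 0.036 for Gabarap, -0.38 to 0.024 for Gabarapl1, -0.26 to 0.030 for Gnptg and -0.23 to 0.11 for Hexa. Others ranged from -0.15 to 0.11 for Lamp2, -0.11 to 0.087 for Nbr1, -0.060 to 0.13 for Npc2, -0.032 to 0.10 for Pink1, -0.14 to 0.062 for Sqstm1, -0.29 to 0.0084 for Ulk1 and -0.19 to 0.075 for Wipi1. The joint omission of wild type replicate 2 and knockout replicate 1, included in these ranges, was chosen after seeing the data.

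Same-numbered libraries did not deviate together (correlations of -0.26, -0.27 and -0.05). The deviations were taken around each group's mean of 3 libraries, so these values constrain one another and cannot settle whether the numbers mark a pairing. The labels do not tie the numbers across groups. With the replicate block the number of the 40 genes past the threshold was 0 and the lowest adjusted p 0.822 (limma). Read depth is unknown, and 3 libraries per group limit the precision.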
